A study of Homo sapiens with 6 samples.

Results

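The RPSA pseudogenes are copies of the RPSA mRNA that lie scattered over the human genome. They were taken as every gene whose symbol is RPSAP followed by a number, of any annotated type, which gave 77 gene IDs with 75 distinct symbols among 68201 genes counted. By type, 69 IDs were processed pseudogenes, 5 were transcribed processed pseudogenes, 1 was a translated processed pseudogene (RPSAP56), 1 was an unprocessed pseudogene (RPSAP67) and 1, RPSAP58, was protein coding. RNA came from K-562, a human chronic myeloid leukemia cell line of wild-type genotype kept untreated, as 3 libraries from whole cells (WC) and 3 from extracellular vesicles (EVs) that the line released into medium with vesicle-depleted serum and purified by size exclusion chromatography. Total RNA was reverse transcribed from poly(A) tails, amplified by PCR and sequenced on nanopores, and reads were counted per gene. Everything below refers to this 1 line, and the 2 groups carry no difference in genotype or treatment.

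RPSA encodes a protein of the small (40S) ribosomal subunit that is needed for maturation of that subunit, and it is also known as the precursor of a laminin receptor. A processed pseudogene arises when a spliced mRNA is reverse transcribed and inserted back into the genome, so that it lacks introns and often ends in a run of A. Ribosomal protein genes have left many such copies in mammalian genomes. The copies resemble their parent closely, and a read from the parent mRNA can be placed on a copy, or the reverse, when it spans no differing base. A read that does span such a base may also be misplaced, since the paper reports aligned reads of less than full accuracy.

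Of the 77 IDs, 75 were found in the annotation used here (GENCODE release 44 on GRCh38), on 22 chromosomes, and all 75 aligned to the main RPSA mRNA of 1140 bases (RPSA-201; gene at chr3:39406716-39426255, plus strand). Identity ran from 67.0% to 99.4%, with a median of 90.6%. In 46 copies the match to the RPSA mRNA ended at the same base, 1036, which lies 104 bases before the end of RPSA-201. A stretch of 20 bases following that base held a median of 13 A bases in those copies. The 13 copies with enough reads to be tested all ran from base 1, 2 or 3 of the RPSA mRNA to base 1036, and their 20 following bases held 10 to 18 A.

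One stretch of 100 coding bases, bases 217 to 316 of the RPSA mRNA, is shown for RPSA and 8 tested copies because it is the gap-free stretch within 1 RPSA exon at which these copies differed from RPSA the most. Capitals mark bases that differ from RPSA, and every line reads 5′ to 3′ in the direction of the mRNA (GRCh38). The RPSA stretch lies at chr3:39408611-39408710 on the plus strand. RPSAP58 is at chr19:23827300-23827399 (plus), RPSAP54 at chr13:20961450-20961549 (plus), RPSAP9 at chr9:76398837-76398936 (plus) and RPSAP61 at chrX:44741225-44741324 (plus). On the minus strand are RPSAP19 at chr1:101786986-101787085, RPSAP12 at chr12:68553645-68553744, RPSAP15 at chrX:87703993-87704092 and RPSAP8 at chrX:100156537-100156636.
RPSA: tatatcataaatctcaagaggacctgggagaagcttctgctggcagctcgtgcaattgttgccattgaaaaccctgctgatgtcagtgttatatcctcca
RPSAP58: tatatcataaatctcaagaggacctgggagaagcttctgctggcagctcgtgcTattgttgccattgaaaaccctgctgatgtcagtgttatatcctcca
RPSAP19: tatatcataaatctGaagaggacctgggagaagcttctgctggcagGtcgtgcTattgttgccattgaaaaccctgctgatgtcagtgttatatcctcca
RPSAP12: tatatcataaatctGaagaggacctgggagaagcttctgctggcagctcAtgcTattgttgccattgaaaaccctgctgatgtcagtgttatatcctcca
RPSAP15: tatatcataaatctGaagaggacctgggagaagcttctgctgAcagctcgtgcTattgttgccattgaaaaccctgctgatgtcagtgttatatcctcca
RPSAP54: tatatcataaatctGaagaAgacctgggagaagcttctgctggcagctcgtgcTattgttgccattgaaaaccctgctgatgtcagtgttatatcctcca
RPSAP9: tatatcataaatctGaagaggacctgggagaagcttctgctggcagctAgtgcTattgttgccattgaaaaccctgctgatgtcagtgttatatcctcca
RPSAP61: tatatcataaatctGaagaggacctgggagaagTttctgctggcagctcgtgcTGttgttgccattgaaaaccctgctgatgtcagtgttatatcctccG
RPSAP8: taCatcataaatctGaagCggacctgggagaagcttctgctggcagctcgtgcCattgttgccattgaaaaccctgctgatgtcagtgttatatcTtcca
Over this stretch RPSAP58 differed from RPSA at 1 base, RPSAP19, RPSAP12, RPSAP15, RPSAP54 and RPSAP9 at 3 bases each, and RPSAP61 and RPSAP8 at 5 bases each. Substitutions are written with the RPSA base, its position from base 1 of the RPSA mRNA, and the base of the copy. C231G stood in 12 of the 13 tested copies, and RPSAP58 was the one that kept the RPSA base. A270T stood in 10 of them, RPSAP58 included.

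Across their whole length, RPSAP58 differed from the RPSA mRNA by 6 substitutions and no gap (99.4% identity), against 14 substitutions and 3 gap bases for RPSAP19 (98.4%), 21 substitutions for RPSAP12 (98.0%), 23 for RPSAP15 (97.8%), 21 and 3 gap bases for RPSAP54 (97.7%) and 28 for RPSAP9 (97.3%). RPSAP8 had the most substitutions of the tested copies, 44. Of 210 distinct substitutions found in the tested copies, 164 stood in 1 copy and 11 in 8 or more. RPSAP58 carried 3 of those 11 and RPSAP19 carried 4. Among the tested copies, RPSAP58 was the nearest in sequence to each of the other 12, at 95.3% to 98.2% identity. Identity to RPSA was of like size. RPSAP12 had 98.0% to each, RPSAP19 had 98.4% to RPSA and 98.2% to RPSAP58, and RPSAP4 had 96.0% to RPSA and 96.2% to RPSAP58. Descent of the copies from one another was not tested. The longest run without a difference from RPSA was 353 bases in RPSAP58 and 95 to 256 bases in the other 12.

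**Figure D1:**
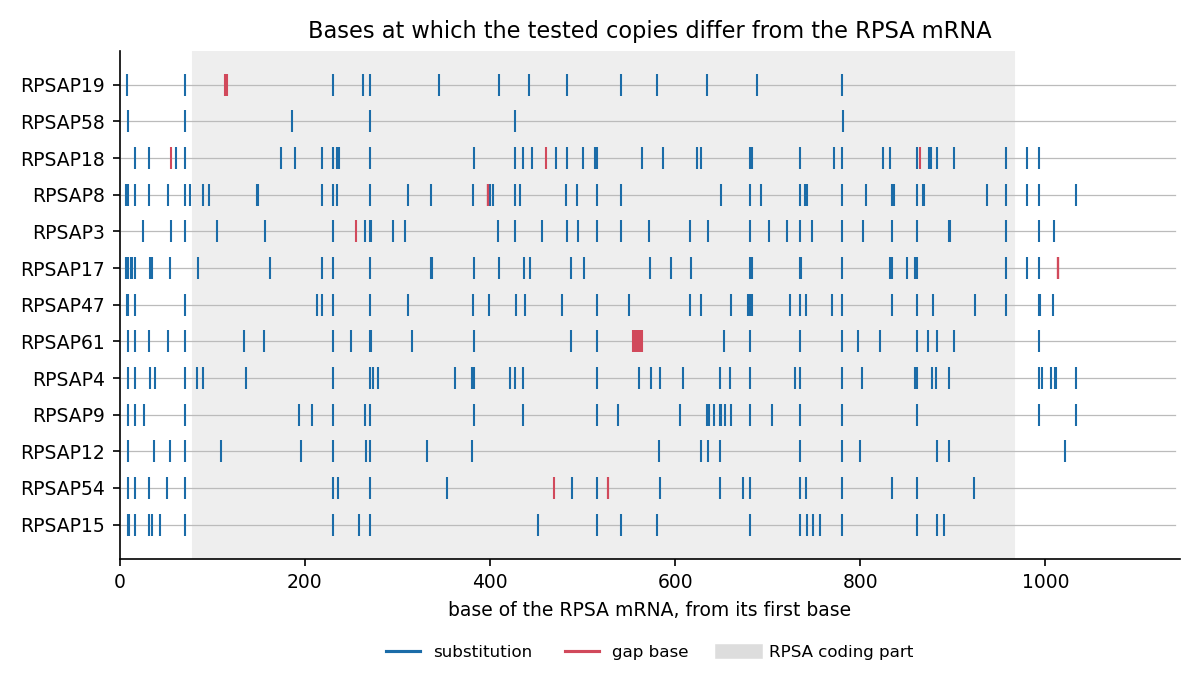
Positions at which each of the 13 tested copies differs from the RPSA mRNA, with the base of the mRNA on the horizontal axis and 1 line per copy, ordered by log2 fold change with the highest at the top. Blue ticks are substitutions, red ticks are gap bases and the shaded span is the RPSA coding part; RPSAP58 shows 6 ticks and RPSAP8 the most substitutions, 44.

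RPSAP58 (ENSG00000288920, named RPSA2 in release 44) stands apart from the other tested copies in its structure. Its gene covers chr19:23762944-23871162 on the plus strand, and the transcript that holds the copy has 4 exons, the last of which (chr19:23827070-23828868, 1799 bases) contains the whole copy at chr19:23827084-23828119. Of the 6 substitutions, T9C and T71C lie before the RPSA start codon, A270T leaves the encoded amino acid as in RPSA, and G186C, C427T and G781T, in codons 36, 117 and 235, change it. An open frame over all 295 codons of RPSA was present in RPSAP58, RPSAP12, RPSAP15 and RPSAP47. In the other tested copies the frame from the start codon ran on for 87 (RPSAP3) to 294 codons (RPSAP19). The only gap of RPSAP19 was of 3 bases, 114 to 116 of the RPSA mRNA, within the coding part.

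WC libraries held 2480560 to 3178211 counts and EV libraries 560157 to 881338, with 21997 to 23874 and 12891 to 14263 genes with a count, so low copies are measured less precisely in EVs. Erythroid markers of this line were present, with 8 of 9 tested, 5 higher in EVs (2 with total-count scaling), led by the fetal globin HBG2 (log2 fold change 4.30 for HBG2), and 1 lower, the transferrin receptor TFRC (-1.11 for TFRC). With total-count scaling 2 of the 8 were lower. Over all 8716 genes tested 22.8% were higher and 21.4% lower, and 1066 were higher and 4494 lower with total-count scaling. The lymphoid markers CD3E and MS4A1 had 1 and 0 reads in all, and neither was tested. RNA levels below are CPM (counts scaled to a common library size) computed with edgeR's TMM factors. A CPM value is a share of a library, so more of an RNA per vesicle and less of the other RNAs cannot be told apart.

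RPSA pseudogenes took 63355 reads, 49667 in WC and 13688 in EVs. They made up 0.642%, 0.582% and 0.566% of all gene counts in the WC libraries and 0.643%, 0.722% and 0.684% in the EV libraries, so the highest WC value and the lowest EV value nearly met. The groups overlapped with coding and pseudogene counts as the total, where WC replicate 1 (0.669%) was above EV replicate 1 (0.660%). They also overlapped without RPSAP58, where WC replicate 1 (0.630%) was above EV replicates 1 and 3 (0.570% and 0.617%). RPSA itself held 0.211% ± 0.011 (SD, n = 3) of WC counts and 0.208% ± 0.014 (SD, n = 3) of EV counts. Of the reads on RPSA and its copies together, 73.9% ± 0.29 (SD, n = 3) in WC and 76.7% ± 0.17 (SD, n = 3) in EVs were assigned to the copies. The multi-mapping settings of the count are not given, so whether a read could be counted at several of these genes is not known. Read numbers here are therefore numbers of assignments. The 4 copies with the most reads, RPSAP15, RPSAP54, RPSAP12 and RPSAP9, took 94.3% ± 0.47 of the pseudogene reads in WC and 80.8% ± 1.2 in EVs (SD, n = 3). RPSAP58 took 1.96% ± 0.06 in WC and 10.1% ± 1.2 in EVs (SD, n = 3).

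Reads were concentrated on few copies, and those were the copies closest to RPSA. Identity below is that of the annotated exons of a copy. Of 16 copies at 95% identity or more, 14 had reads, 13 were tested and together they held 63267 reads. The 23 copies at 90% to under 95% held 66 reads, at most 19 on 1 copy (RPSAP29), and the 36 copies under 90% held 22 reads, at most 11 on 1 copy (RPSAP22). In all, 40 IDs had no read in any library. The order by reads did not follow identity at the top, since RPSAP58, the closest copy, had 2380 reads and RPSAP19, the next, had 660, while RPSAP15, RPSAP54 and RPSAP12 had 17567, 16164 and 15867.

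Exons of another gene overlapped 13 of the 75 copies, and reads that lie over more than 1 gene were set aside as ambiguous in the authors' counting. RPSAP19 shared 300 of its bases with LINC01709 on the opposite strand, which is 29.0% of the copy, and RPSAP58 shared 99 bases, 9.56% of the copy, with a lncRNA gene on the opposite strand. In RPSAP17 the overlap was 11 bases. RPSAP26, with 98.2% identity and 0 reads, shared 92.3% of its copy with other genes, among them COMMD1 on its own strand. At least 50% of the copy was shared in 7 members, none of which had more than 1 read. No read fell on 8 of the 13 copies with a shared exon and on 30 of the 62 without one. Among the tested copies, RPSAP15, RPSAP54, RPSAP12, RPSAP9, RPSAP61, RPSAP47, RPSAP4, RPSAP3, RPSAP18 and RPSAP8 shared no exon base with another gene. The part of these overlaps in the counts was not tested.

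**Figure D2:**
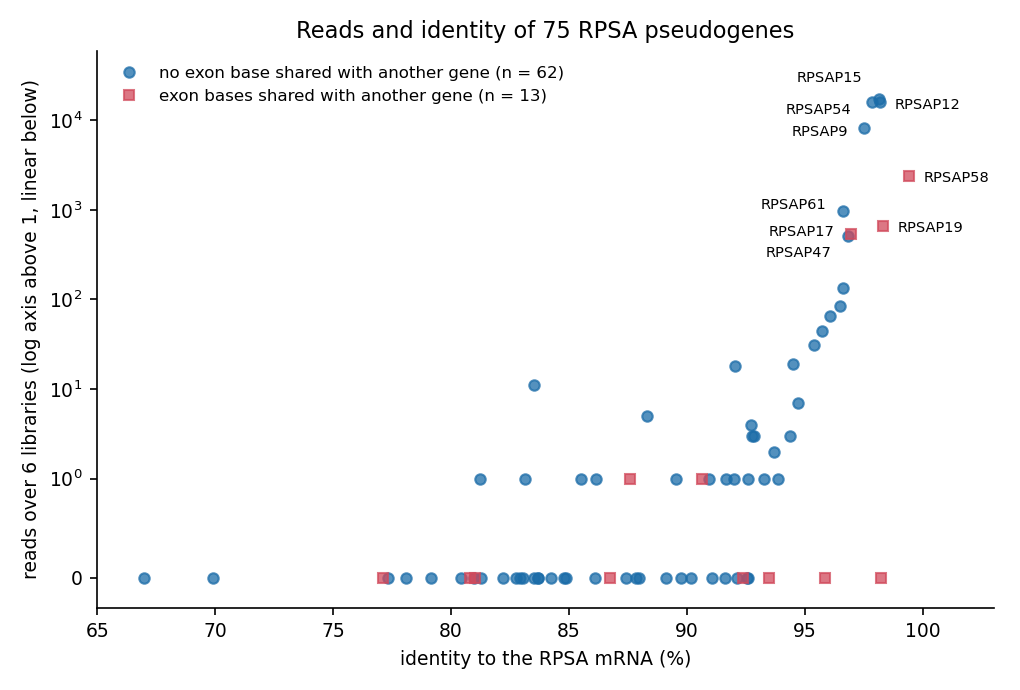
Reads over the 6 libraries (vertical axis, logarithmic above 1 and linear below) against identity of the annotated exons to the RPSA mRNA (horizontal axis, percent) for 75 RPSA pseudogenes, 1 point each. Squares are the 13 copies with exon bases shared with another gene, and circles the other 62; copies under 90% hold at most 11 reads, and RPSAP58 and RPSAP19 lie below RPSAP15, RPSAP54 and RPSAP12 at higher or like identity.

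Comparing EVs with WC tests which of these copies take a different share of the RNA in vesicles than in cells. Of the 77 members, 13 passed the expression filter of edgeR, and 10 of these reached the filter level of 5.95 CPM in all 6 libraries. The 10 rose in EVs at an adjusted p under 0.05 by edgeR's quasi-likelihood test, with log2 fold changes from 0.58 to 4.03 and a median of 1.03. Among 951 pseudogenes of any family at that level in all 6 libraries 70.6% rose and the median was 1.11, so a rise was the usual direction for such a pseudogene and the median of the RPSA copies was close to that of the others. The other 3, RPSAP3, RPSAP18 and RPSAP8, reached the level in all 3 EV libraries but in 2, 0 and 0 WC libraries, so they entered the test through EVs, where they are high, and their rise is a description only. With them, 13 of 13 rose and the median was 1.72, against 22.8% higher, 21.4% lower and a median of -0.13 over all 8716 genes tested and 62.9% higher with a median of 1.09 over the 1427 tested pseudogenes. No tested RPSA pseudogene had a log2 fold change below 0, so 0 were lower at an unadjusted p under 0.05, and DESeq2 also called 0 lower. The 13 are not all members, and the counts describe those that passed.

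Scaling set the position of 0. With total counts in place of TMM factors the median of all tested genes moved from -0.13 to -0.78, and calls over all genes went from 1987 higher and 1864 lower to 1066 higher and 4494 lower. Under that scaling 8 of the 13 copies rose, where 12.2% of all genes and 46.5% of tested pseudogenes (663 of 1427) did. RPSA, RPSAP12, RPSAP54 and RPSAP15 then had log2 fold changes of -0.038, -0.074, -0.077 and -0.078 and did not pass the test, nor did RPSAP9 (0.15) and RPSAP4 (0.32). In CPM with TMM factors, the EV values of all 13, the 3 that entered through EVs included, lay above all WC values. The same held for 24.9% of all genes tested. As a share of all gene counts, RPSA overlapped between the groups, with 0.224% in WC replicate 1 and 0.194% in EV replicate 1.

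**Figure D3:**
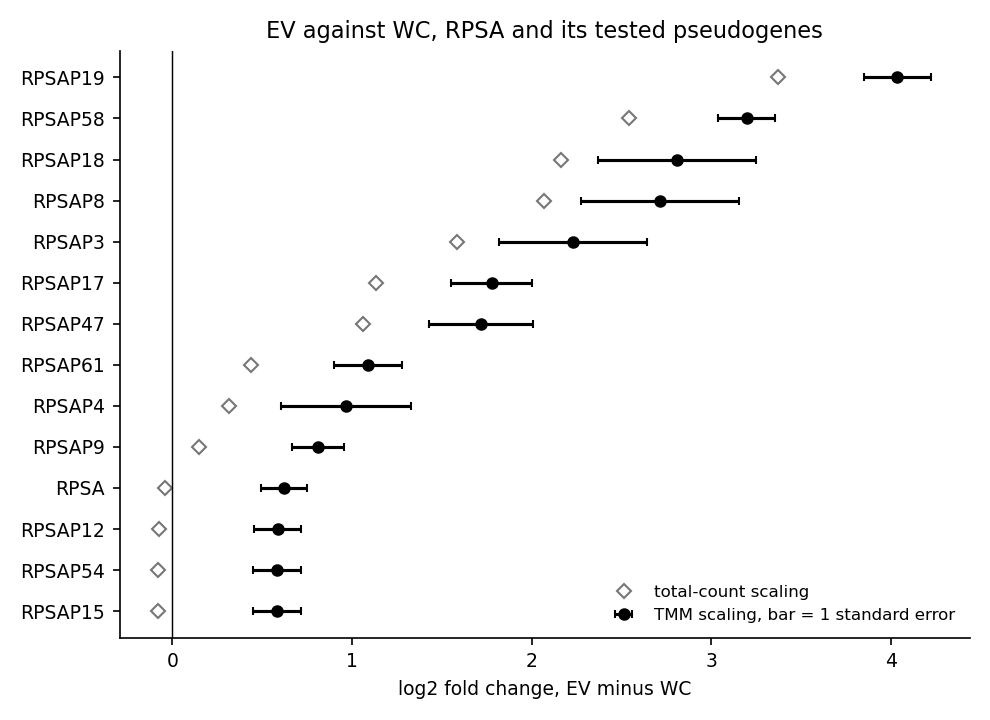
Log2 fold change of EVs against WC (horizontal axis) for RPSA and the 13 tested pseudogenes, with filled points for TMM scaling (bars, 1 standard error) and open diamonds for total-count scaling. RPSAP19 and RPSAP58 are highest at 4.03 and 3.196, and RPSA, RPSAP12, RPSAP54 and RPSAP15 lie between 0.58 and 0.62 with TMM and just under 0 with total counts.

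The parent gene gives the reference for its copies. RPSA held 1905, 1679 and 1589 CPM in the WC libraries and 2340, 2861 and 2774 CPM in the EV libraries. Every EV library was above every WC library, and RPSA rose by 0.62 on the log2 scale (SE 0.13, adjusted p = 0.00031, edgeR).

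RPSAP15, RPSAP54 and RPSAP12, the copies with the most reads, moved like RPSA. RPSAP15 held 1559, 1360 and 1286 CPM in WC and 1815, 2271 and 2224 CPM in EVs (log2 fold change 0.58, SE 0.13, adjusted p = 0.00085, edgeR). RPSAP54 held 1452, 1239 and 1180 CPM in WC and 1697, 2028 and 2084 CPM in EVs (0.58, SE 0.13, adjusted p = 0.00088, edgeR). For RPSAP12 the values were 1407, 1229 and 1157 CPM in WC and 1708, 2075 and 1915 CPM in EVs (0.59, SE 0.13, adjusted p = 0.00075, edgeR). In all 3 copies the lowest EV value was that of replicate 1 and the highest WC value was also that of replicate 1, and the groups did not overlap. RPSAP9, the next in reads, held 727, 610 and 582 CPM in WC and 970, 1288 and 1107 CPM in EVs and rose by 0.81 on the log2 scale (SE 0.14, adjusted p = 5.8e-05, edgeR).

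RPSAP58 and RPSAP19, the copies closest to RPSA in sequence, had the largest log2 fold changes of the 13. For RPSAP58 the counts are those of its whole gene, with 12195 exon bases of which the copy holds 1036. RPSAP58 held 107, 95.5 and 84.6 CPM in WC and 885, 853 and 890 CPM in EVs. The 3 EV libraries lay close together and far above the WC libraries, at 9.16 times their mean (log2 fold change 3.196, SE 0.16, adjusted p = 2.4e-14, edgeR). RPSAP19 held 17.9, 18.9 and 17.7 CPM in WC and 277, 303 and 320 CPM in EVs. Here too both groups were tight, and the EV mean was 16.5 times the WC mean (log2 fold change 4.03, SE 0.19, adjusted p = 9.4e-15, edgeR). Both copies kept their call under each of the 14 alternative settings tried, with log2 fold changes of 2.54 to 3.22 for RPSAP58 and 3.37 to 4.08 for RPSAP19.

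RPSAP18, RPSAP8 and RPSAP3 rose as well, on few reads. RPSAP18 had 9, 17 and 5 reads in WC and 9, 13 and 12 in EVs, which gave 3.09, 4.34 and 1.45 CPM against 12.3, 30.1 and 27.4 CPM (log2 fold change 2.81, SE 0.44, adjusted p = 1e-05, edgeR). RPSAP8 had 7, 8 and 7 reads in WC and 9, 6 and 8 in EVs, or 2.40, 2.04 and 2.04 CPM against 12.3, 13.9 and 18.3 CPM (2.71, SE 0.44, adjusted p = 1.5e-05, edgeR). RPSAP3 had 22, 19 and 8 reads in WC and 12, 10 and 14 in EVs, or 7.56, 4.85 and 2.33 CPM against 16.5, 23.1 and 32.0 CPM (2.23, SE 0.41, adjusted p = 9.5e-05, edgeR). Their read counts were of like size in both groups while the EV libraries were several times smaller. With RPSAP58 and RPSAP19 these 3 copies made up the 5 members that reached a log2 fold change of at least 2 at an adjusted p of at most 0.01, as 4.53% of all genes did. These 3 entered through EVs, and of the 10 copies at the filter level in all 6 libraries 2 reached it, RPSAP58 and RPSAP19, as 3.36% of 4917 such genes did. Without WC replicate 3 the number was 3, and after thinning of WC reads to the depth of EV libraries it was 2 of 9 copies tested.

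Between these lay RPSAP17, RPSAP47, RPSAP61 and RPSAP4. RPSAP17 held 41.6, 39.1 and 22.1 CPM in WC and 136, 102 and 110 CPM in EVs (log2 fold change 1.78, SE 0.23, adjusted p = 4.8e-07, edgeR). RPSAP47 held 40.5, 37.8 and 22.4 CPM in WC and 63.1, 150 and 130 CPM in EVs, with EV replicate 1 well below the other two (1.72, SE 0.29, adjusted p = 0.00015, edgeR). RPSAP61 held 88.3, 64.8 and 60.8 CPM in WC and 145, 157 and 153 CPM in EVs (1.09, SE 0.19, adjusted p = 3.8e-05, edgeR). In RPSAP17 and RPSAP47 the lowest WC value was that of replicate 3, and in all 3 copies the groups stood apart. RPSAP4 held 14.8, 7.40 and 9.31 CPM in WC and 17.8, 25.4 and 18.3 CPM in EVs, with a gap between the groups of about the size of the spread within them (0.97, SE 0.36, adjusted p = 0.032, edgeR). That call did not hold with the replicate number as a block (adjusted p = 0.052), with DESeq2 (adjusted p = 0.16), or in the 5 fits that left out 1 library other than WC replicate 1 (adjusted p = 0.050 to 0.14).

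**Figure D4:**
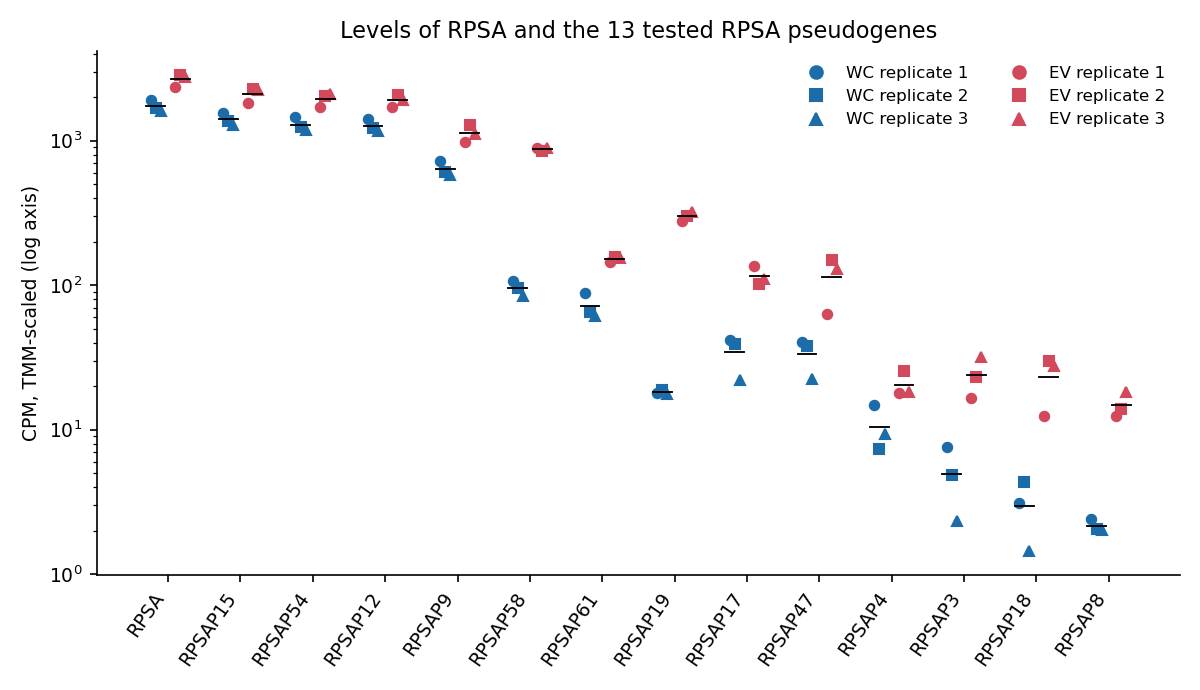
CPM with TMM scaling (vertical axis, logarithmic) of RPSA and the 13 tested pseudogenes in each library, blue for WC and red for EVs, with the replicate shown by the symbol and a bar at each group mean. The EV points lie above the WC points for each gene, narrowly for RPSA, RPSAP15, RPSAP54 and RPSAP12 and by 9.16 and 16.5 times for RPSAP58 and RPSAP19.

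Setting each copy against RPSA in the same library removes the scaling of libraries. These are ratios of read counts, not corrected for gene length, and each was compared between groups for the same pair of genes. RPSAP15 had 81.8, 81.0 and 80.9 reads per 100 RPSA reads in WC and 77.5, 79.4 and 80.2 in EVs, where WC values were slightly higher and did not overlap with EVs. RPSAP54 had 76.2, 73.8 and 74.2 in WC and 72.5, 70.9 and 75.1 in EVs, and RPSAP12 had 73.9, 73.2 and 72.8 in WC and 73.0, 72.5 and 69.1 in EVs, both with overlap. The ratio of these 3 copies to RPSA thus stayed between 69.1 and 81.8 in all 6 libraries, and the EV mean was 0.973 to 0.976 times the WC mean.

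RPSAP58, counted over its whole gene, had 5.61, 5.69 and 5.33 reads per 100 RPSA reads in WC and 37.8, 29.8 and 32.1 in EVs, 6.0 times the WC mean. For RPSAP19 the values were 0.938, 1.13 and 1.12 in WC and 11.8, 10.6 and 11.5 in EVs, 10.7 times the WC mean. Both had EV values far from the WC values. RPSAP9 had 38.1, 36.3 and 36.6 in WC and 41.4, 45.0 and 39.9 in EVs (1.14 times), and RPSAP61 had 4.63, 3.86 and 3.82 in WC and 6.21, 5.50 and 5.51 in EVs (1.40 times). The EV mean was 2.26 times the WC mean for RPSAP17, 2.18 times for RPSAP47, 3.202 times for RPSAP3, 5.01 times for RPSAP18 and 4.44 times for RPSAP8, each without overlap. RPSAP4 overlapped between groups (1.28 times).

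In all, 9 of the 13 copies had every EV ratio above every WC ratio, where 13.8% of the 8715 other genes tested did, and RPSAP3, RPSAP18 and RPSAP8 were among the 9. Of the rest, 1 had every EV ratio below and 3 overlapped. A two-sided exact permutation test of 3 against 3 libraries cannot give a p below 0.1, which is what the 10 copies without overlap had (0.13 after Benjamini-Hochberg adjustment over 13 copies), so no ratio could pass a threshold of 0.05. Against RPSA, RPSAP12, RPSAP15 and RPSAP54 summed, the ratio of EVs to WC was 6.11 for RPSAP58 and 10.9 for RPSAP19. With RPSA alone as the reference and 1 library left out at a time, the ratio ran from 5.59 to 6.31 for RPSAP58 and from 10.1 to 11.02 for RPSAP19.

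**Figure D5:**
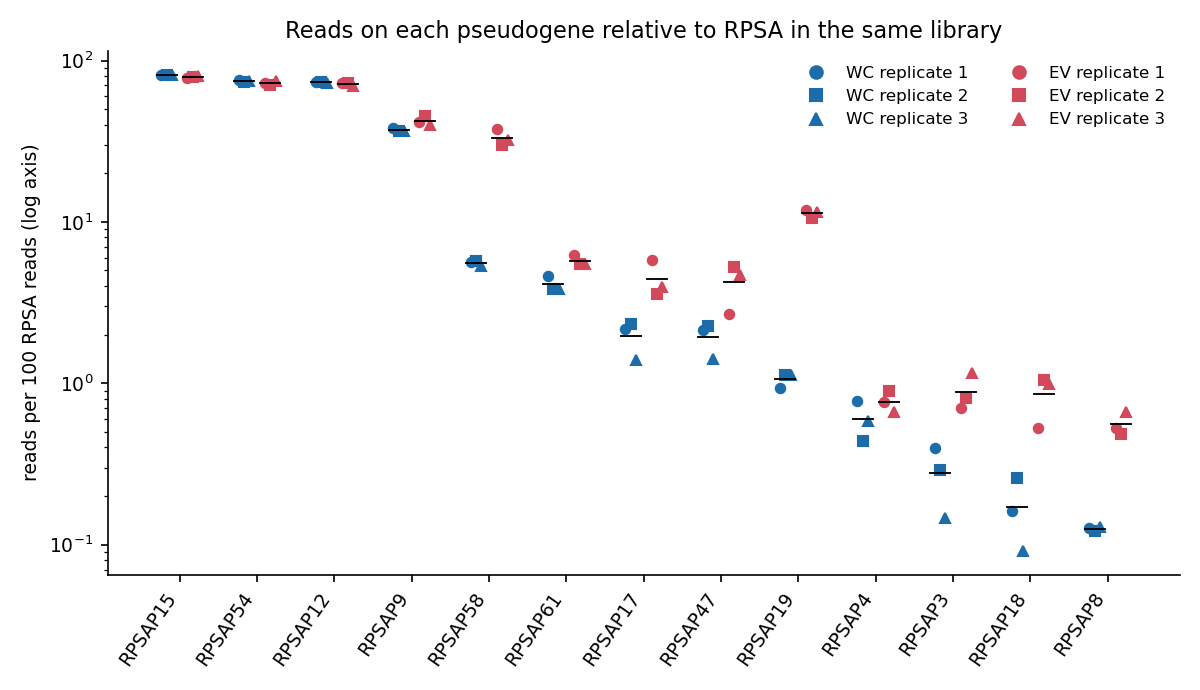
Reads on each tested pseudogene per 100 reads on RPSA in the same library (vertical axis, logarithmic), blue for WC and red for EVs, with the replicate shown by the symbol and a bar at each group mean. RPSAP15, RPSAP54 and RPSAP12 stay between 69.1 and 81.8 in all 6 libraries, and RPSAP58 and RPSAP19 stand 6.0 and 10.7 times higher in EVs.

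Per kilobase of annotated exon, the order of the 12 tested copies other than RPSAP58 differed between the groups. Levels in WC were 1628 ± 164, 1456 ± 162 and 1424 ± 145 CPM per kb for RPSAP15, RPSAP54 and RPSAP12, which do not differ beyond their spread, then 720 ± 86.4 for RPSAP9, 81.2 ± 16.9 for RPSAP61, 38.8 ± 12.0 for RPSAP17, 37.8 ± 11.01 for RPSAP47 and 20.6 ± 0.72 for RPSAP19 (SD, n = 3). In EVs the first 4 kept their order, and RPSAP19 came next with 341 ± 24.3 CPM per kb, above RPSAP61 (173 ± 6.84), RPSAP17 (131 ± 20.2) and RPSAP47 (129 ± 51.4). RPSAP4, RPSAP3, RPSAP18 and RPSAP8 were lowest in both, at 11.8 or less in WC and 26.9 or less in EVs. RPSAP58 has 12195 bases of annotated exon, most of them outside the copy, and its level over them was 7.84 ± 0.91 CPM per kb in WC and 71.8 ± 1.6 in EVs (SD, n = 3).

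Of the 64 members that were not tested, 24 had reads, 69 in WC and 50 in EVs. These made up 0.139% of the pseudogene reads in WC and 0.365% in EVs. RPSAP56, the translated processed pseudogene, had 4, 7 and 4 reads in WC and 4, 6 and 6 in EVs. RPSAP29 had 2, 8 and 2 in WC and 0, 2 and 5 in EVs, and RPSAP36 had 2, 4 and 2 in WC and 5, 2 and 3 in EVs. RPSAP22 had 1, 2 and 7 in WC and 1, 0 and 0 in EVs. The main fit did not test these members. In the fit without the filter, RPSAP56 had a log2 fold change of 2.54 (adjusted p = 0.00056, edgeR) and RPSAP36 of 2.70 (adjusted p = 0.0062, edgeR). RPSAP29 (1.68, adjusted p = 0.18, edgeR) and RPSAP22 (-0.78, adjusted p = 0.73, edgeR) did not pass there. These values rest on the few reads given above.

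Isoform models that the authors built from the long reads with FLAIR give a second view of the copies. Of 195235 models, 6 carried the ID of RPSAP58, and 1 of these, the annotated transcript with 4 exons on the plus strand, ran through the copy and was classed as productive. Its score in the deposited file was 60, on a scale that ran from 1 to 60 and stood at 60 for 91.4% of models. The 9 models over other tested copies (RPSAP15, RPSAP54, RPSAP19, RPSAP47 and RPSAP3) had 1 exon each and scores from 1 to 17. On the strand of the copy lay 1 of 3 models at RPSAP19, 1 of 2 at RPSAP47 and 0 of 2 at RPSAP54. The 1 model at RPSAP15 and the 1 at RPSAP3 also lay on that strand. The model of score 17, at RPSAP19, lay on the opposite strand. RPSAP12, RPSAP9, RPSAP61, RPSAP17, RPSAP4, RPSAP18 and RPSAP8 had no model over the copy. In the isoform table RPSAP58-204 was listed with an authors' mean of 126 normalized reads over all libraries, beside 12 isoforms of RPSA of which RPSA-201 had the highest authors' mean, 1403, and no other RPSA pseudogene was listed.

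Other genes of the same pathways give the setting. Of 34 mRNAs of the cytosolic 40S subunit, RPSA among them, 33 were tested, 32 rose and 0 fell with edgeR, with a median log2 fold change of 1.05; DESeq2 called 31 higher and 0 lower. RPS18 and RPS12, the highest of them, had log2 fold changes of 1.22 and 1.29 at WC means of 5121 and 3738 CPM. RPS3A had the largest, 3.43, at a much lower WC mean of 28.1 CPM. RPSA, at 0.62, was in the lower part of their range of 0.49 to 3.43. Of 20 laminin and laminin receptor mRNAs 3 were tested, and the integrin subunit ITGB1 (-1.60) and the dystroglycan gene DAG1 (-2.89) fell while the tetraspanin CD151 (1.44) rose. DAG1 reached the filter level in 3 WC and 0 EV libraries, and CD151 in 1 WC and 3 EV libraries. Each thus entered the test through the group where it is high, and their changes are a description only. Copies of other ribosomal protein mRNAs moved in the same direction as the RPSA copies. All 11 tested copies of RPL21 rose (median 1.45), as did all 35 of RPS2, RPS3A, RPS15A and RPS26 (median 1.21) and 32 of 33 of RPL3, RPL5, RPL10 and RPL13A (median 2.28). These lists hold every copy that passed the filter, whether or not it reached the filter level in all libraries. Of all 1427 tested pseudogenes 62.9% rose, and 46.5% with total-count scaling. With total-count scaling 22 of the 33 40S mRNAs rose and CD151 did not pass the test, while 11 copies of RPL21, 22 of the RPS2, RPS3A, RPS15A and RPS26 copies and 30 of the RPL3, RPL5, RPL10 and RPL13A copies rose, and 0, 1 and 1 copies fell.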

How the data were processed

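Poly(A)-primed cDNA of 3 WC and 3 EV libraries of the K-562 line was sequenced on nanopores. Per the labels and the study's methods, reads were mapped to hg38 with minimap2 and counted per gene of GENCODE release 41 with featureCounts in long-read mode; strand and multi-mapping settings are not given in the sources used here. The values tested are the authors' deposited raw counts per gene. Isoform models and their score, and the mean normalized read signal per isoform, are the authors' deposited values. Fold changes (log2), p-values, TPM values and group means deposited by the authors were not used.

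Genes were tested with edgeR 4.0.16 (R 4.3.3): filterByExpr, TMM factors, the robust quasi-likelihood test of EV against WC over 6 libraries without covariates, and Benjamini-Hochberg adjustment over 8716 genes. A standard error is the log2 fold change divided by the root of its F statistic. Repeated lines of the count table (68247 lines) were reduced to 1 per ID, which left 68201. Copies were aligned to RPSA-201 with blastn 2.17.0 on GRCh38 with GENCODE release 44; annotated transcripts gave the identity of exons, and each locus with 300 flanking bases gave the extent of the copy. On simulated counts over 8186 genes, 52.1% of changes of 1, 93.8% of 2 and 100% of 3 and 4 on the log2 scale were recovered, with 6 false calls among 7999 unchanged genes. The simulation gave every gene the same dispersion and changed few genes, equally up and down, with no other difference between groups. These rates describe the test under those settings and need not hold for the real counts.

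Same-numbered libraries came from the same culture and flow cell, per the study's methods; the pairing was checked by the correlation of their deviations from the group means, which was 0.06, 0.02 and 0.004. By those methods the replicates are biological triplicates, separate cultures of 1 line. Alternatives were RLE and total-count scaling, DESeq2 1.42.0, no filter, a mean of at least 5 reads, the replicate number as a block, thinning of WC reads to EV depth, a threshold fold of 2 (glmTreat) and leaving out each library. Named genes were every tested RPSA pseudogene, untested ones with 10 or more reads, RPSA, and from each other list the 2 highest by mean CPM and the largest rise and fall. Members and lists were chosen with earlier results of these data known. A further lymphoid marker is not reported here.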

Additional observations from a re-analysis of the deposited data

How the results depend on the processing

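RPSAP58, RPSAP19, RPSAP17, RPSAP47, RPSAP18, RPSAP3 and RPSAP8 stayed higher in EVs past the threshold under every alternative that tested them. With total-count scaling 8 RPSA pseudogenes rose, their median log2 fold change was 1.06, RPSA was at -0.038, RPSAP12 at -0.074, RPSAP54 at -0.077 and RPSAP15 at -0.078, and 0 laminin and laminin receptor mRNAs rose. Against a fold of 2, 711 of all 8716 genes rose, among them 7 RPSA pseudogenes, 9 mRNAs of the 40S subunit and 0 laminin and laminin receptor mRNAs. RPSA (0.62) did not pass. Without the filter 11 of 37 RPSA pseudogenes rose with a median of 1.06, where 1813 of all 29258 genes rose. RPSAP12, RPSAP54 and RPSAP15 then lost their calls (log2 fold changes 0.37, 0.37 and 0.36, adjusted p = 0.069, 0.071 and 0.070, edgeR). The fit without the filter had 0 laminin mRNAs higher, and that with a mean of at least 5 reads had 2. Thinning WC left 5263 genes tested, 9 of them RPSA pseudogenes. Of these 9, 2 were at 2 or more on the log2 scale and the median was 1.01. In that fit 0 laminin mRNAs were higher and 1 was lower. Leaving out each library in turn gave a median of 1.17 to 1.85, 3 to 7 RPSA pseudogenes at 2 or more on that scale, 0 to 2 laminin mRNAs higher and 1 to 3 lower, with 1 laminin mRNA tested when any WC library was left out and 5 without EV replicate 3. Over the 10 copies at the filter level in all 6 libraries, a choice made after seeing the data, 10 rose, 2 reached 2 or more on the log2 scale and the median was 1.03. Without the copies that share an exon base with another gene, the median was 1.03, and the copies took 73.3% of RPSA-family reads in WC and 73.7% in EVs. Without RPSAP58 these shares were 73.5% and 74.7%, the same as with copies of 90% identity or more over at least 50% of their length, which leaves out RPSAP58, and RPSA pseudogenes held 0.585% of WC and 0.614% of EV counts. With the replicate block 12 of 13 rose, with a median of 1.72, and RPSAP4 (0.93, adjusted p = 0.052) was the one lost; the block changed no other call among the RPSA pseudogenes or RPSA. RPSAP4 also lost its call under 9 further alternatives, with adjusted p up to 0.73. The cause of these changes was not tested.

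Of the 77 members 64 were below the filter, 40 of them without a read in any library, and copies of under 100 reads in all (RPSAP3, RPSAP18 and RPSAP8) rest on 5 to 22 reads in each library. Reads of near-identical copies and of RPSA may be exchanged in mapping, or counted at several of these genes. Each copy's value is therefore uncertain by an amount that the counts do not show.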
